A study of Mus musculus with 34 samples.

Results

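Cyclins, the cyclin-dependent kinases (CDKs) they switch on, CDK inhibitors, the retinoblastoma (RB) and E2F transcriptional control and the factors that license replication origins make up the core cell-cycle machinery, and 48 genes of this machinery were examined in mouse embryonic stem cells (mESCs). They were taken as the 48 of 23366 gene rows of the deposited expression table whose symbol equals a listed gene, and every listed symbol was found. The mRNA was measured by RNA-seq in J1 mESCs, an established mouse line kept undifferentiated in serum by the cytokine LIF. LIF was withdrawn in both groups compared, so that all 4 libraries came from serum medium without LIF. The serum/-LIF group (2 libraries) received nothing further, and the serum/-LIF + Royalactin group (2 libraries) received purified Royalactin, a honeybee royal jelly protein, at 0.5 mg/ml. The sample labels give passage 40 for all 4 libraries, whereas the description of the study gives a lower passage number. The 30 ATAC-seq samples of the series were not analysed here. The question asked of these genes was whether the cell-cycle programme differs when Royalactin is present during LIF withdrawal.

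D-type cyclins with Cdk4 or Cdk6, and E-type cyclins with Cdk2, phosphorylate the pocket proteins Rb1, Rbl1 and Rbl2 during G1 and so release E2F transcription factors, which switch on the genes of DNA synthesis. Origins are licensed in G1 when Cdt1 helps to load the MCM helicase, and geminin (Gmnn) blocks reloading until the next division. Entry into mitosis needs Cdk1 with A-type and B-type cyclins, and mouse embryonic stem cells are known for a short G1 and for cyclin E and Cdk2 activity that varies little over the cycle.

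Levels are given as normalized counts, which are reads per gene divided by a size factor for each library, and are listed in the order serum/-LIF replicates 1 and 2, then serum/-LIF + Royalactin replicates 1 and 2. Each library held 14737796 to 17597818 reads on genes. The ribosomal RNA precursor Rn45s took 46.6% and 38.4% of them in the replicate 1 libraries and 21.6% and 9.08% in the replicate 2 libraries, which left 7878527 to 15999458 reads for the other genes. As a check of the labelled cell type, the mean of all 8 pluripotent cell markers was higher with Royalactin, 5 of them past an adjusted p-value of 0.05 (limma, Benjamini-Hochberg), and the stem cell factor Pou5f1 was abundant in all 4 libraries, between 4996 and 7453 normalized counts. Of 11 fibroblast markers, Pdgfrb, Fap, S100a4 and Postn were at 0 in every library, and the 11 summed to 164 and 94.2 against 97.6 and 69.5 normalized counts. The 12 early lineage markers summed to 2223 and 1799 in serum/-LIF against 885 and 787 with Royalactin, a sum carried by Fgf5 and Nes, which were lower past the adjusted threshold. Of the 8 early lineage markers tested, 4 had a higher and 4 a lower mean (median 0.14), and Pax6, at 93.6 and 79.7 against 172 and 171, Gata4 and Kdr were higher in both Royalactin libraries without passing. The part of these differences in cell state in the values below was not tested. In bulk RNA, fewer cells in a phase and less mRNA per cell cannot be told apart.

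Differences were tested on the log2(normalized count + 1) scale with limma, and a log2 fold change is always Royalactin minus serum/-LIF. Of the 48 genes, 45 had a mean of at least 10 normalized counts and were tested. Of these, 30 had a higher mean and 15 a lower mean with Royalactin. Mybl2 alone passed an adjusted p-value of 0.05 (limma, Benjamini-Hochberg over 12993 genes), against a background of 0.493% of all genes tested. The limits used in the study were an unadjusted p-value of 0.05 and a 2-fold change, there with DESeq. Applied here to the limma fit, they were passed by Mybl2, which was higher, and by Ccne2, which was lower, against a background of 7.13%. Both Royalactin libraries lay above both serum/-LIF libraries for 14 of the 45 genes (background 19.7%) and below them for 5 (background 18.9%). The median log2 fold change of the 45 was 0.15, beside -0.01 over all genes tested. For 16 of the 45 the 95% interval lay wholly within a 2-fold change in either direction, beside 3053 of all 12993 genes tested.

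**Figure D1:**
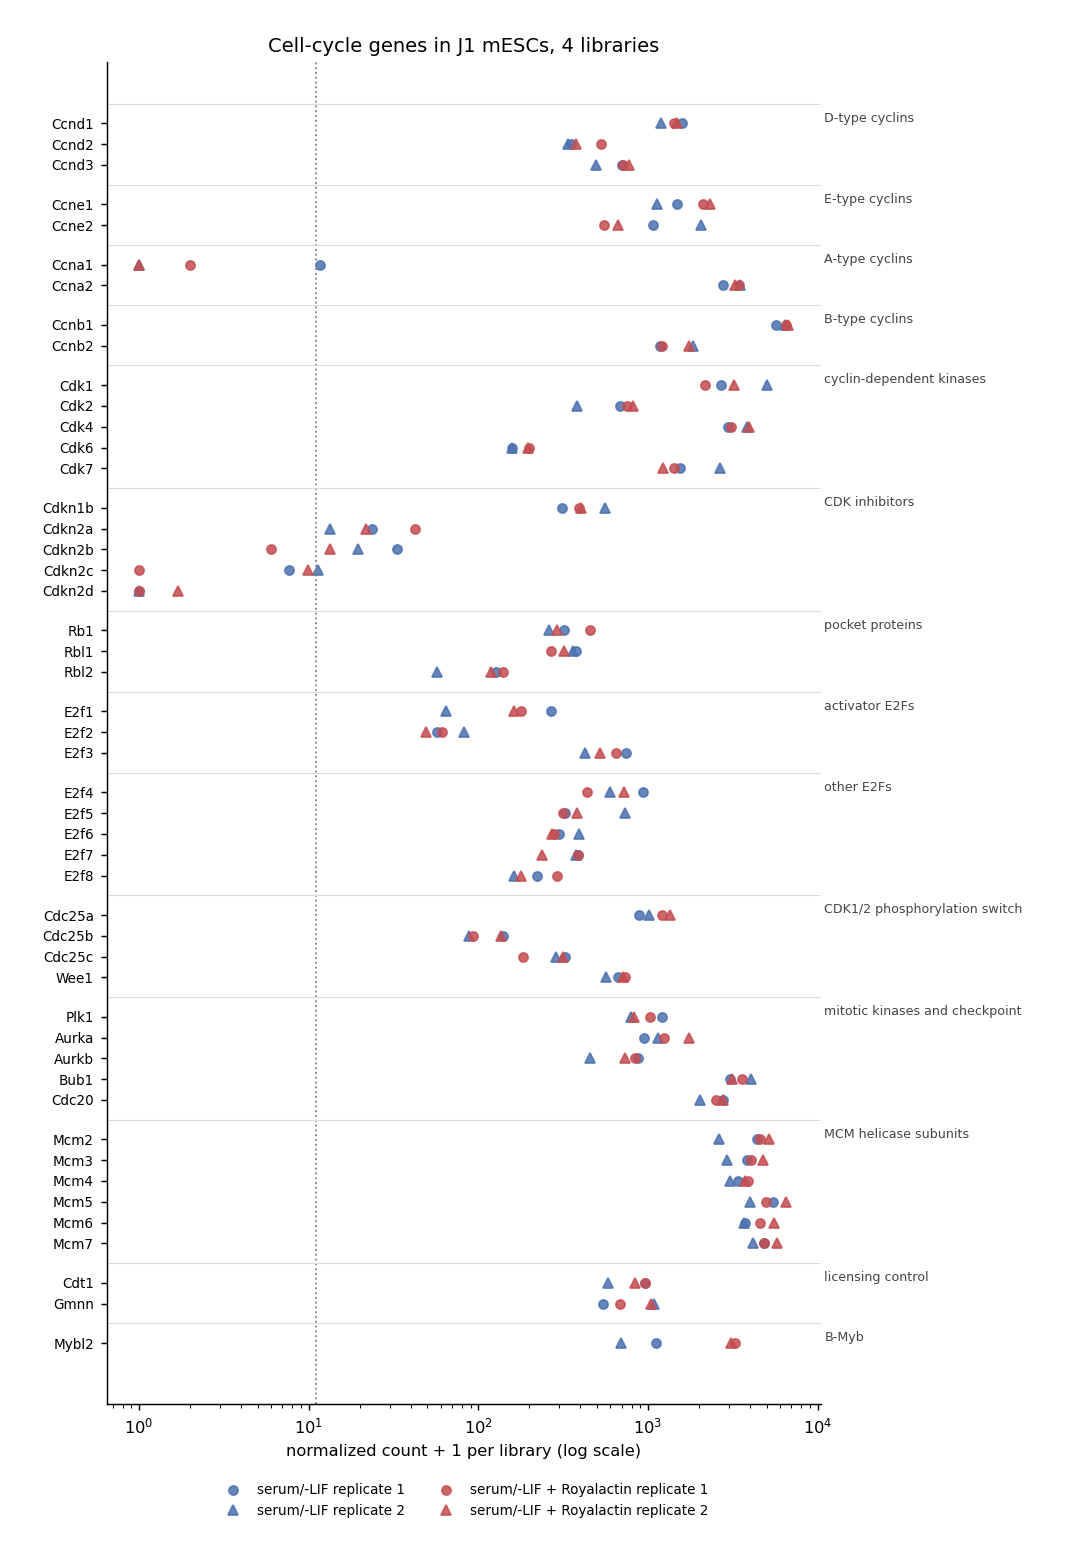
Normalized count + 1 (log axis) of the 48 genes in each library, grouped by role, with circles for replicate 1 and triangles for replicate 2 and a dotted line at the filter on a mean of 10. The 2 Royalactin libraries of Mybl2 sit at 3254 and 3076, apart from the serum/-LIF libraries at 1111 and 692, while most other genes have mixed symbols.

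Mybl2, which encodes the transcription factor B-Myb, a product of the G1/S programme that goes on to activate mitotic genes, rose with Royalactin. Its normalized counts were 1111 and 692 in serum/-LIF and 3254 and 3076 with Royalactin. The Royalactin libraries lay far above both serum/-LIF libraries and close to each other. The means were 902 ± 296 and 3165 ± 126 (SD, n = 2 each), a log2 fold change of 1.85 (SE 0.31, adjusted p = 0.0184, limma with Benjamini-Hochberg adjustment). This corresponds to a 3.60-fold rise with a 95% interval from 2.26 to 5.76. On the per-length scale Mybl2 went from 195 to 683 normalized counts per kilobase of exon. When single libraries were left out the log2 fold change stayed between 1.51 and 2.19, and in those fits of 3 libraries no gene of the whole table passed the adjusted threshold. The adjusted p-value of Mybl2 was 0.166 to 1.0 in them, 0.0505 with a pseudocount of 0.1 and 0.358 without the variance trend (limma, Benjamini-Hochberg). Mybl2 lies on chromosome 2 (mm9, 162880423 to 162910424, plus strand), and 26.3% of the 75-base tiles of its exons also match elsewhere in the genome, so that part of its reads could belong to near-identical copies.

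The promoter window of Mybl2, from RefSeq, is shown because Mybl2 was the only gene of the 48 to pass the adjusted test. It is the 250 bases before the start, chr2:162880121-162880370 (mm9, plus strand), with the letters GGCGGGA, a core shared by E2F binding sites, in capitals.
Mybl2: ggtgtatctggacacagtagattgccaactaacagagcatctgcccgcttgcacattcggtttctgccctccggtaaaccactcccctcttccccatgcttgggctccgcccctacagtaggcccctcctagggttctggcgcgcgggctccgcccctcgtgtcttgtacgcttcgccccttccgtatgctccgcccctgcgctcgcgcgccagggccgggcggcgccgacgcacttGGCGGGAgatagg
The capitals stand a few bases before the start. This core, searched on both strands and added after the windows were seen, was found in 12 of 42 windows of the listed genes (28.6%) and in 11.3% of all 32851 RefSeq windows of 300 bases. The letters after its leading G, GCGGGA, also begin the reverse complement of TTTCCCGC, so the searches overlap.

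The E-type cyclins, which activate Cdk2 at the G1/S transition, had means on opposite sides of the serum/-LIF level. Ccne1 had normalized counts of 1479 and 1134 in serum/-LIF and 2110.3 and 2320.4 with Royalactin. The groups did not overlap, and the log2 fold change was 0.77 (95% interval 0.14 to 1.41, adjusted p = 0.404, limma with Benjamini-Hochberg adjustment), a 1.71-fold difference that did not pass. Ccne2 had normalized counts of 1071 and 2063 in serum/-LIF and 552 and 668 with Royalactin. Both Royalactin libraries were below both serum/-LIF libraries, although the serum/-LIF replicates themselves were far apart. Its log2 fold change was -1.29 (95% interval -2.05 to -0.53, adjusted p = 0.181, limma with Benjamini-Hochberg adjustment), so that Ccne2 passed the limits of the study but not the adjusted test. Without serum/-LIF replicate 2 the log2 fold change of Ccne2 shrank to -0.82, and it passed the limits of the study neither in that fit nor without serum/-LIF + Royalactin replicate 1. Exons of Ccne2 overlap those of Ints8 on the opposite strand, and Ints8 stood at 1303 and 1868 against 1257 and 1066 normalized counts. Reads of the overlap cannot be assigned to a strand here, since the strand setting of the counting is not given in the sources used here.

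Within each library the share of Ccne1 in the summed E-type cyclins per kilobase of exon was 64.5% and 41.9% in serum/-LIF and 83.4% and 82.0% with Royalactin. The means were 53.2% ± 15.9 and 82.7% ± 0.971 (SD, n = 2 each), and the exact two-sided permutation test gave p = 0.333, the smallest value that 2 against 2 libraries allow. Ccne1 lies on chromosome 7 (mm9, 38883003 to 38892553, minus strand) and Ccne2 on chromosome 4 (mm9, 11118498 to 11131926, plus strand). None of the exon tiles of either gene matched elsewhere in the genome.

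**Figure D2:**
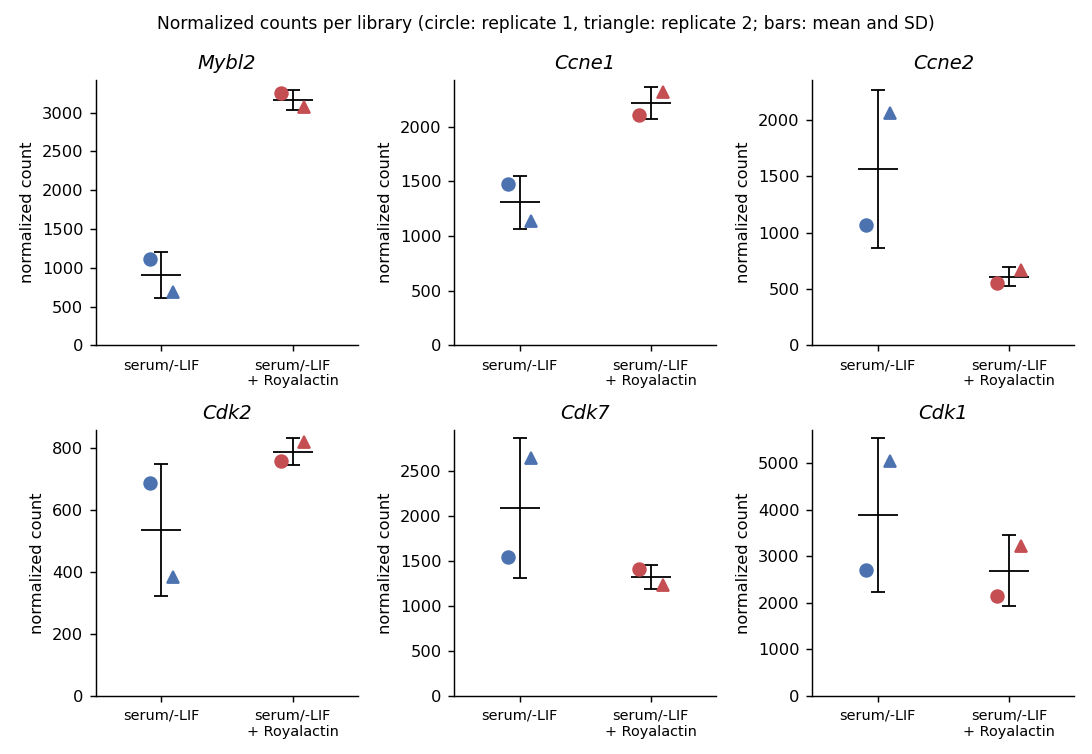
Normalized counts per library (linear axes from 0) for Mybl2, Ccne1, Ccne2, Cdk2, Cdk7 and Cdk1, with bars for the mean and SD of 2 libraries per group. Mybl2 and Ccne1 are higher in both Royalactin libraries and Ccne2 lower, and the serum/-LIF replicates of Ccne2, Cdk7 and Cdk1 lie widely apart.

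Among the D-type cyclins, the G1 partners of Cdk4 and Cdk6, none of the 3 passed the test. Ccnd2 had the largest difference, with normalized counts of 353 and 336 in serum/-LIF against 529 and 374 with Royalactin. Its groups did not overlap, with a log2 fold change of 0.37 (95% interval -0.41 to 1.15). Ccnd3 was also above both serum/-LIF libraries, by 0.33, although under upper-quartile scaling its groups overlapped. For Ccnd3 26.3% of exon tiles also match elsewhere in the genome. Ccnd1, the most abundant D-type cyclin per length, had normalized counts of 1593 and 1199 against 1414 and 1485, which overlap (log2 fold change 0.07, 95% interval -0.57 to 0.71). Ccnd1 made up 52.6% and 52.9% of the D-type cyclin level per kilobase in serum/-LIF and 47.4% and 48.8% with Royalactin (exact two-sided permutation p = 0.333, again the smallest possible).

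None of the A-type and B-type cyclins, which drive S phase and mitosis, passed the test. Ccna2 had normalized counts of 2784 and 3509.9 in serum/-LIF and 3425 and 3256 with Royalactin, with both Royalactin values inside the serum/-LIF range (log2 fold change 0.10, 95% interval -0.53 to 0.72). Ccnb1, the gene with the highest mean level per kilobase among the 48 in serum/-LIF, had 5697 and 6401 against 6478 and 6723. Its groups did not overlap, but the log2 fold change was 0.13 with a 95% interval of -0.51 to 0.77. Ccnb2 had 1181 and 1847 against 1212 and 1742, a log2 fold change of -0.02 (95% interval -0.73 to 0.68) whose sign turned under scaling to the total without Rn45s. For Ccnb1 33.4% of exon tiles also match elsewhere in the genome. The germ cell cyclin Ccna1 was near 0, with 8, 0, 1 and 0 reads, and was not tested.

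Of the 5 CDKs, none passed the test. Cdk2, the kinase of E-type cyclins, had normalized counts of 685 and 383 in serum/-LIF and 755 and 818 with Royalactin. Both Royalactin libraries were higher, with a log2 fold change of 0.62 (95% interval -0.15 to 1.38, adjusted p = 0.645, limma with Benjamini-Hochberg adjustment). Cdk7, the kinase that activates other CDKs and is part of the transcription factor TFIIH, had 1543 and 2644 against 1415 and 1229. Both Royalactin libraries were lower, with a log2 fold change of -0.61 (95% interval -1.31 to 0.08, adjusted p = 0.61, limma with Benjamini-Hochberg adjustment). Exons of Cdk7 overlap those of Ccdc125 on the opposite strand, and several other listed genes have such overlaps. Cdk1, the mitotic kinase, had 2712 and 5049 against 2154 and 3226, groups that overlapped (log2 fold change -0.49, 95% interval -1.24 to 0.26). Cdk4 was at 0.04 with overlapping groups, and Cdk6 was higher in both Royalactin libraries, at 0.32. Cdk4 made up 95.6% and 96.6% of the summed Cdk4 and Cdk6 level per kilobase in serum/-LIF and 94.8% and 95.9% with Royalactin (exact two-sided permutation p = 0.667). For both Cdk2 and Cdk7 the limits of the study were passed, among the alternatives run, only when serum/-LIF replicate 1 was left out, a fit in which 14.8% of all genes passed them.

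Of the 5 listed CDK inhibitors, all but Cdkn1b were scarce. Cdkn1b, which encodes p27, had normalized counts between 309 and 554 (log2 fold change -0.06, 95% interval -0.88 to 0.76). Outside the listed genes, the CDK inhibitor Cdkn1c had 495 and 624 in serum/-LIF against 438 and 436 with Royalactin. Cdkn1a, another such inhibitor, had 275 and 102 against 199 and 105. Cdkn2a, the locus of p16 and ARF, had 22.7 and 12.4 in serum/-LIF and 41.2 and 20.6 with Royalactin. Cdkn2b, which encodes p15, had 32.1 and 18.6 against 5.03 and 12.4. The Cdkn2a groups overlapped and the Cdkn2b groups did not, but with at most 41 reads per library the 95% intervals ran from -1.49 to 3.01 and from -4.26 to 1.25. Cdkn2c (p18) was below the filter, at 6.69 and 10.4 against 0 and 8.95 normalized counts. Cdkn2d (p19) had a single read, in serum/-LIF + Royalactin replicate 2, and 100% of its exon tiles also match elsewhere in the genome. For a gene at 0 in a library, up to 3 reads, equal to 2.06 to 4.01 normalized counts in the 4 libraries, could have gone unseen, a floor that covers counting error only.

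The pocket proteins hold E2Fs in check, and none of the 3 passed the test. Rbl2 (p130) had normalized counts of 126 and 55.9 in serum/-LIF and 139 and 118 with Royalactin, which overlap (log2 fold change 0.61, 95% interval -0.63 to 1.84). Rbl1 (p107) had 373 and 358 against 266 and 319. Both Royalactin libraries were lower for Rbl1, with a log2 fold change of -0.33 (95% interval -1.12 to 0.47). Rb1 itself was at 0.33 with overlapping groups.

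E2F family mRNAs showed no difference past the test. Among the activators, E2f1 had 267 and 63.1 normalized counts in serum/-LIF and 178 and 162 with Royalactin. The serum/-LIF replicates lay on either side of both Royalactin libraries, and without serum/-LIF replicate 2 the log2 fold change of E2f1 went from 0.38 to -0.65. E2f2 had 56.2 and 81.8 against 60.4 and 48.2, overlapping values (log2 fold change -0.32), and E2f3 was at 0.05, also with overlapping groups. Of the other 5 E2Fs, which include the repressors and the atypical members, 4 had a lower mean with Royalactin, with a class median of -0.34. E2f5 had 324 and 729.7 against 314 and 379, with overlapping groups and a log2 fold change of -0.49 (95% interval -1.39 to 0.40). Without serum/-LIF replicate 2 its sign turned, to 0.09. E2f6, a repressor, was lower in both Royalactin libraries, at -0.32, and 24.5% of its exon tiles also match elsewhere. E2f8, an atypical repressor, had 221 and 161 against 292 and 178, which overlap (log2 fold change 0.27, 95% interval -0.69 to 1.23). E2f4 was at -0.41 and E2f7 at -0.34, both with overlapping groups.

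The CDK1 and CDK2 phosphorylation switch is set by the Cdc25 phosphatases, which remove inhibitory phosphates, and by the kinase Wee1, which adds them. Cdc25a, the G1/S phosphatase, had normalized counts of 885 and 1019.5 in serum/-LIF and 1202 and 1351 with Royalactin. Both Royalactin libraries were higher (log2 fold change 0.42, 95% interval -0.22 to 1.06, adjusted p = 0.72, limma with Benjamini-Hochberg adjustment). Cdc25c, a mitotic phosphatase, had 324 and 286 against 182 and 315, with overlapping groups (log2 fold change -0.34, 95% interval -1.24 to 0.55). Wee1 was higher in both Royalactin libraries, at 0.23, and Cdc25b was at 0.02 with overlapping groups.

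None of the 5 mitotic kinases and checkpoint genes passed the test. Aurka, which encodes the centrosomal Aurora A kinase, had normalized counts of 943 and 1142 in serum/-LIF and 1234 and 1750.5 with Royalactin. Both Royalactin libraries were higher, with a log2 fold change of 0.50 (95% interval -0.17 to 1.17, adjusted p = 0.671, limma with Benjamini-Hochberg adjustment). Plk1, a kinase of mitotic entry and exit, had 1205 and 796 against 1032 and 826, which overlap (log2 fold change -0.09). Aurkb, of the chromosomal passenger complex, was at 0.31. The anaphase activator Cdc20 was at 0.15 and the checkpoint kinase Bub1 at -0.06, all 3 with overlapping groups. Of the exon tiles, 24.8% of those of Cdc20 and 15.2% of those of Plk1 also match elsewhere in the genome.

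The 6 subunits of the MCM2-7 helicase, which unwinds DNA at the replication fork, were all higher by mean with Royalactin and none passed the test. Mcm2 had the largest difference, with normalized counts of 4417 and 2637 in serum/-LIF against 4566 and 5164 with Royalactin. Its groups did not overlap (log2 fold change 0.51, 95% interval -0.18 to 1.20, adjusted p = 0.68, limma with Benjamini-Hochberg adjustment). Mcm6 had 3749 and 3703 against 4605 and 5546. The serum/-LIF replicates of Mcm6 were nearly equal and both Royalactin libraries lay above them (log2 fold change 0.44, 95% interval -0.19 to 1.07). Mcm7 had the smallest difference, with 4830.4 and 4153 against 4802 and 5734, values that overlap (log2 fold change 0.23, 95% interval -0.41 to 0.87). Mcm3, Mcm4 and Mcm6 joined Mcm2 in having no overlap between groups (background 19.7% upward), whereas Mcm5 and Mcm7 overlapped. The 6 subunits together summed to 25659 and 20426 normalized counts in serum/-LIF and to 26814 and 31424 with Royalactin. The class median was 0.33, and the 6 kept a positive sign under each of the 16 other settings, with class medians from 0.15 to 0.49. For Mcm7 23.6% of exon tiles match elsewhere, and its exons overlap other genes on both strands.

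Neither licensing control gene passed the test. Cdt1, which loads the helicase, had normalized counts of 954 and 577 in serum/-LIF and 961 and 834 with Royalactin. The groups of Cdt1 overlapped (log2 fold change 0.27, 95% interval -0.45 to 1.00), and without serum/-LIF replicate 2 its sign turned, to -0.09. Gmnn, its inhibitor, had 543 and 1082 against 682 and 1038, with both Royalactin libraries inside the serum/-LIF range (log2 fold change 0.13, 95% interval -0.68 to 0.95).

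**Figure D3:**
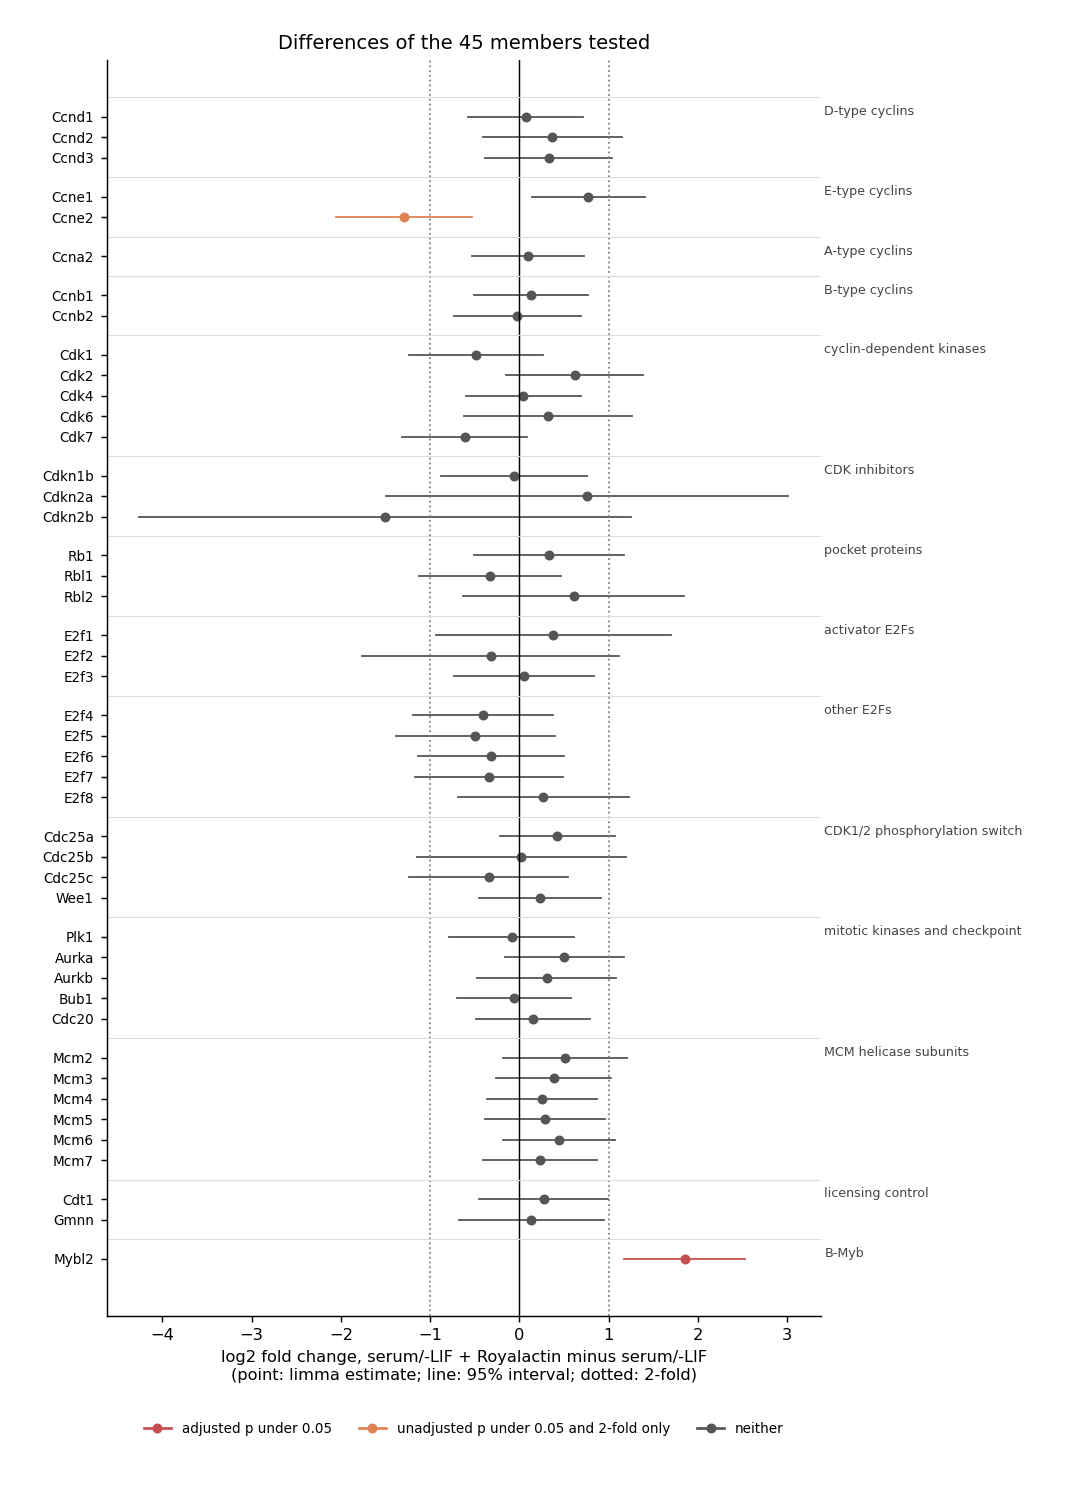
Log2 fold change (Royalactin minus serum/-LIF, limma) of the 45 genes tested with 95% intervals, grouped by role, with dotted lines at a 2-fold change. Mybl2 at 1.85 is the only gene past the adjusted test, Ccne2 at -1.29 passes the limits of the study alone, and all 6 MCM points lie right of 0 with intervals that cross it.

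Promoter windows are shown for 3 more genes as examples. A G1/S kinase (Cdk2) and an MCM subunit (Mcm6) are set beside a mitotic cyclin whose log2 fold change was -0.02 (Ccnb2). Cdk2 and Mcm6 were higher in each Royalactin library, but neither passed the test. The sequences are the RefSeq windows of 250 bases before the start, at chr10:128142108-128142357 (mm9, minus strand), chr1:130256283-130256532 (mm9, minus strand) and chr9:70269362-70269611 (mm9, minus strand), none of which holds an annotated exon. Capitals mark the motifs searched on both strands, namely the E2F sites TTTCCCGC and TTTGGCGC, the E2F core GGCGGGA, the CHR element TTTGAA of mitotic genes and the CCAAT box CCAAT, each also as its reverse complement.
Cdk2: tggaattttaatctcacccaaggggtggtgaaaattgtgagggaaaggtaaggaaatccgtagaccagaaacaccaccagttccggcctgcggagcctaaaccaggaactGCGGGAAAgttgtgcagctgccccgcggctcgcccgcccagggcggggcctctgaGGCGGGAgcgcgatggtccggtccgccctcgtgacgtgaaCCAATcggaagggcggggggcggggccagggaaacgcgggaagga
Mcm6: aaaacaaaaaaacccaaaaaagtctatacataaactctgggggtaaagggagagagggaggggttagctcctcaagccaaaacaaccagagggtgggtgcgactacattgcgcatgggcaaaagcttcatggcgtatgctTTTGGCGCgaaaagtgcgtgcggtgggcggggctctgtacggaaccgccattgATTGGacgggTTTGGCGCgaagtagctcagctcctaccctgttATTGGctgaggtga
Ccnb2: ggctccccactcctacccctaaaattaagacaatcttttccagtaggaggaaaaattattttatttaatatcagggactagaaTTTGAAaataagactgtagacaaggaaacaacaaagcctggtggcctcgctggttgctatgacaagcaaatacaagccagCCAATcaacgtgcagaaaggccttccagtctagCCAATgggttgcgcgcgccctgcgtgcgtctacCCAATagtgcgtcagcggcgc
Mcm6 carries the E2F site TTTGGCGC at 2 places and Cdk2 carries TTTCCCGC, on the opposite strand, together with the core GGCGGGA, and Ccnb2 holds a CHR element. All 3 windows hold CCAAT boxes, 3 in Ccnb2, 2 in Mcm6 and 1 in Cdk2. Of the 48 genes, 36 had at least 1 window. Either of the E2F sites stood in 11 of their 42 windows (26.2%, against 1.56% of all 32851 windows of 300 bases), the CHR element in 11 (26.2%, against 17.9%) and the CCAAT box in 27 (64.3%, against 37.4%). The 6 listed genes with TTTGGCGC were Cdc25a, Cdt1, E2f2, Mcm3, Mcm5 and Mcm6, and those with TTTCCCGC were Cdk2, Cdkn2a, E2f3, E2f7, Mcm3 and Mcm7. Ccne1 held only the E2F core. Of the listed genes with either E2F site, E2f2 and E2f7 had a lower mean with Royalactin and the others a higher mean, beside 30 of the 45 tested genes with a higher mean. Genes with the CHR element went both ways, with Mcm2 and Aurka higher by mean and Cdk1 lower. A link between motif and direction was not tested. A match of letters is a description of the window and not a bound site. Ccna2, Ccnd1, Ccnd2, Ccne2, Rb1, E2f4, E2f5, Cdc25c, Wee1, Aurkb, Mcm4 and Gmnn had no window in the table.

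By phase, the genes best known from G1 and G1/S had higher medians than those of G2/M. The median log2 fold change was 0.32 over the 10 G1 genes tested, of which 8 had a higher mean. It was 0.27 over the 20 G1/S genes, of which 16 had a higher mean, among them Mybl2, Ccne1, Cdk2, Cdc25a and the MCM subunits. The other 4 had a lower mean, namely Ccne2 at -1.29, E2f7 at -0.34, Rbl1 at -0.33 and E2f2 at -0.32. Over the 11 G2/M genes it was 0.02, with 6 higher and 5 lower, and 6 of these 11 had intervals wholly within a 2-fold change. The 4 genes without a fixed phase, Cdk7, E2f4, E2f5 and E2f6, were all lower by mean, with a median of -0.45. The groups did not overlap upward for 3 and downward for 1 of the 10 G1 genes tested. For the 20 G1/S genes these counts were 9 and 2, and for the 11 G2/M genes 2 and 0. The backgrounds were 19.7% upward and 18.9% downward, so that the upward share of the G2/M genes was near its background. Over the 16 other settings the G1 median ranged from 0.17 to 0.38, the G1/S median from 0.11 to 0.45 and the G2/M median from -0.041 to 0.155. Without serum/-LIF + Royalactin replicate 1 the G1 median was 0.166 and the G2/M median 0.155. The difference between phases was not tested, since the lists were chosen with results of these data known.

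Another 103 genes of replication and mitosis were set beside the 48. All 103 were tested, 54 with a higher and 49 with a lower mean, a median of 0.06, and none passed the adjusted p-value (limma, Benjamini-Hochberg) or the limits of the study. At an unadjusted p-value of 0.05 in the same limma fit there were 2, Anapc5 and Ccng1, against 9.34% of all genes tested, and edgeR on the recovered reads also called 0. The groups did not overlap upward for 25 of the 103 (background 19.7%) and downward for 9 (background 18.9%).

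Of the other origin licensing and firing genes (17 genes, median 0.09), Mcm10, a factor of helicase activation, was highest at 0.56 and Orc6, an origin recognition subunit, lowest at -0.47. Replication fork and nucleotide supply genes (20 genes) had a median of 0.17, from 0.52 for the clamp loader subunit Rfc5 to -0.55 for the single-strand binding subunit Rpa3. Spindle checkpoint and anaphase-promoting complex genes (22 genes) had a median of 0.07. Within that list the complex subunits Anapc5 and Anapc10 stood at opposite ends, at 0.66 and -0.75. Mitotic structure and cytokinesis genes (18 genes) spanned only -0.34 for Cdca8, of the chromosomal passenger complex, to 0.34 for the cyclin Ccnf, with a median of 0.06. The DREAM, DP and FOXM1 genes (11 genes), which include the partners that B-Myb joins, had a median of -0.02, with the mitotic transcription factor Foxm1 at 0.41 and the DREAM subunit Lin37 at -0.69. Among 15 other CDK regulators (median -0.08), Pkmyt1, a kinase that inhibits Cdk1, stood at 0.99 and the p53 target Ccng1 at -0.80.

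**Figure D4:**
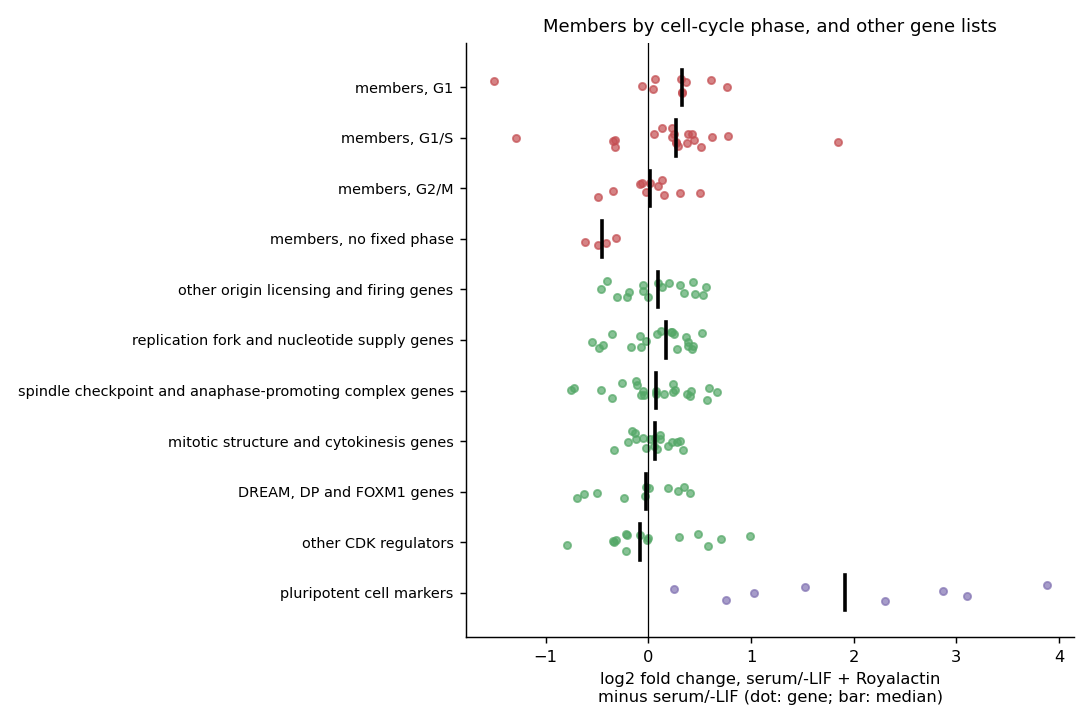
Log2 fold change (Royalactin minus serum/-LIF) of each gene tested, by phase for the listed genes (red), for 6 lists of other cell-cycle genes (green) and for pluripotent cell markers (purple), with a bar at each median. The medians of the cell-cycle lists lie between -0.45 and 0.32, and that of the pluripotent cell markers is 1.91.

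Per kilobase of exon, the level of the 48 genes over the 4 libraries spanned 0.135 for Cdkn2d to 1500.0 for Ccnb1 as a mean over both groups. By group mean, Ccnb1 was highest in serum/-LIF, at 1434 beside 1345 for Mcm5. With Royalactin Mcm5 was highest by mean, at 1634 beside 1565 for Ccnb1. In the replicate 1 library of each group, however, Ccnb1 and Mcm5 stood in the opposite order. By mean in serum/-LIF, Mcm6 at 853 and Mcm4 at 894 stood below Cdk1 at 1126 and Ccnb2 at 982. With Royalactin the means of Mcm6 and Mcm4 stood above them, at 1162 and 1060.0 against 781 and 958. Single libraries did not all keep these orders. In serum/-LIF replicate 1 Mcm6 and Mcm4 already stood above Cdk1 and Ccnb2, and in serum/-LIF + Royalactin replicate 2 Mcm4 stood below Ccnb2. The lowest levels were those of Cdkn2b at 12.2, Cdkn2c at 2.42, Ccna1 at 1.87 and Cdkn2d. The activator E2f1 stood at 53.1 and the pocket proteins between 15.8 for Rbl2 and 54.9 for Rb1 and Rbl1.

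The spread between replicates was not small beside the differences between groups, although these are unlike measures. A replicate difference is between single libraries, and a group difference is between means of 2 libraries, which vary less. Over the 45 genes tested, the median absolute log2 difference was 0.455 for the 2 serum/-LIF libraries, 0.256 for the 2 Royalactin libraries and 0.326 for the group means, beside 0.567, 0.388 and 0.400 over all genes tested. The serum/-LIF replicates differed at least 2-fold for Rbl2, E2f1 and E2f5, and the Royalactin replicates for Cdkn2b. In serum/-LIF the difference of replicate 2 from replicate 1 was lower at a higher GC content of a gene's exons across the 45 genes (Pearson's r = -0.542, Spearman's rho = -0.547), while with Royalactin the coefficients were near 0 (r = 0.064, rho = 0.058). The log2 fold change between groups had r = 0.296 with exon GC content (rho = 0.274). These are descriptions across genes of the same 4 libraries, which are not independent points. Ccne2 had the lowest exon GC content of the 45, at 37.6%, and that of Mybl2 was 55.4%. When a smooth trend with GC content and exon length was removed from each library, both Mybl2 (adjusted p = 0.000411) and Ccne2 (adjusted p = 0.0356) passed the adjusted threshold (limma, Benjamini-Hochberg), as did 1.9% of all genes tested.

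**Figure D5:**
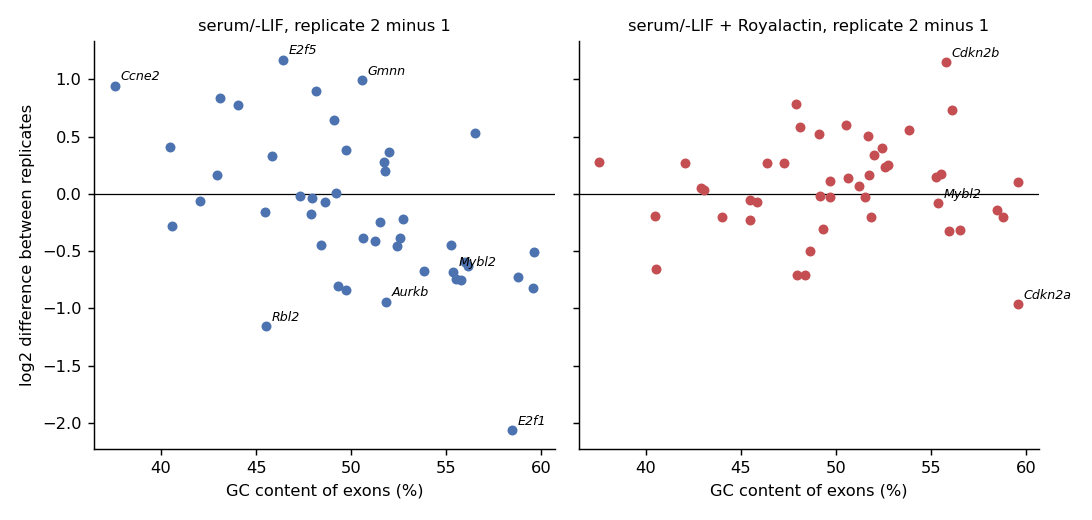
Log2 difference of replicate 2 from replicate 1 against exon GC content (%) for the 45 genes tested, in serum/-LIF (left) and serum/-LIF + Royalactin (right). In serum/-LIF the points scatter about a downward slope (r = -0.542), from Ccne2 at the lowest GC content to E2f1 near the highest. Off this slope, Rbl2 lies low at 45.51% GC and Gmnn high at 50.55%. With Royalactin the points show no such slope (r = 0.064).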

How the data were processed

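RNA-seq of ribosomal RNA depleted total RNA from J1 mESCs was used, 2 libraries in serum/-LIF and 2 in serum/-LIF + Royalactin, grouped by the sample titles. Per the study's methods, the authors used Tophat (at most 2 mismatches) for alignment to mm9 and HTSeq-count for gene counts, which were then scaled by DESeq size factors. The processing notes also name Bowtie, and the gene annotation is not given in the sources used here. The deposited values are these normalized counts per gene, a signal proportional to reads. In every library 100% of values were whole multiples of the value of 1 read within 0.01 of a read, although in serum/-LIF + Royalactin replicate 1 that value was 1.01, too near 1 for an automatic test to decide. Of the symbols, 27 read as dates. The labels do not tie the replicates to separate cultures, and p-values then measure only the spread between these libraries, which may be technical.

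Genes with a mean of at least 10 were tested in R 4.3.3 by limma 3.58.1 on log2(normalized count + 1), two-sided and with a variance trend, and p-values were adjusted by Benjamini-Hochberg. A fold change on this scale understates that of low genes. The study's limits name no adjustment and were applied to the unadjusted limma p-values, whereas the study tested counts with DESeq. No list was tested as a set. Alternatives were pseudocounts of 0.1 and 5, other filters and scalings, no trend, a replicate block, a lowess correction for GC content and length (span 0.3), each library left out, and, added after seeing the data, edgeR 4.0.16 on the recovered read counts with and without the block. The fits were tested on simulated data. The listed genes, gene lists and tests were chosen with earlier results of these data known.

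Named with all values are genes past either threshold, the largest rise and fall of each role class, and genes under the filter. Of the other lists, the largest rise and fall are named. Shares within a library were compared by an exact permutation test, and summed levels were not tested. Positions and exon properties of genes were read from GENCODE gene models on mm9. Exon tiles of 75 bases, every 10 bases, were mapped with minimap2 2.31-r1302, counting matches elsewhere with up to 2 mismatches. Promoter windows come from RefSeq (GRCm38.p6), and the 250 bases before each start were matched exactly to mm9.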

Additional observations from a re-analysis of the deposited data

How the results depend on the processing

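The number of listed genes past the adjusted threshold, 1 in the analysis as reported, was 0 with a pseudocount of 0.1 (Mybl2 adjusted p = 0.0505) and 0 without the trend of the variance, where no gene of the table passed (limma, Benjamini-Hochberg). It was 2 with the correction for GC content and length (Mybl2 and Ccne2, with 1.9% of all genes past against 0.493% as reported) and 1 with edgeR on recovered reads (Mybl2 adjusted p = 0.0324) and with the other filters and scalings. With each library left out in turn it was 0 in all 4 fits, and the number past the limits of the study ranged from 1 (Mybl2) to 6 (without serum/-LIF replicate 1, with Ccne2, Cdk2, Cdk7, E2f1, E2f5 and Mybl2, or 13.3% of the 45 against 14.8% of all genes in that fit). At a fold change of 1.5 that number was 3, Ccne1 included (9.34% of all genes). In these fits the lone library of a group is assumed to vary like the other group. The median log2 fold change ranged from 0.09 to 0.33 over the alternatives. The cause of these moves was not tested.

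Deviations of same-numbered libraries from their group means correlated at r = 0.0851, and the numbers were not taken as a pairing in the main fit. Rn45s took a larger share of reads in the replicate 1 library of each group, and whether the numbers mark a batch was not tested. With the replicate block 2 listed genes passed (Mybl2 adjusted p = 2.63e-08 and Ccne2 0.002, limma with Benjamini-Hochberg adjustment), beside 3.01% of all genes. With the block and edgeR 2 passed, beside 2.29%. With the block and the GC and length correction 3 passed, namely Ccne1, Ccne2 and Mybl2. That was 6.67% of the 45, beside 6.04% of all genes. In 4 libraries a block leaves little from which to estimate each gene's own spread. These p-values rest more on the spread shared across genes than those of the main fit, and not on more replicates.

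Of 25 named genes followed, 16 kept their direction throughout, and 15 of 398 log2 fold changes turned sign. Ccnb2 became 0.032 with scaling to the total without Rn45s and 0.094 with the GC and length correction, with or without the block. The other reversals came from leaving out 1 library. Over those 4 fits Ccnb2 ranged from -0.345 to 0.299, Plk1 from -0.384 to 0.214, Gmnn from -0.362 to 0.631, Ccnd1 from -0.136 to 0.274, E2f1 from -0.653 to 1.412, E2f5 from -1.079 to 0.092, Cdt1 from -0.091 to 0.634, E2f8 from -0.088 to 0.625 and Cdc25c from -0.737 to 0.049. Scaling to the total without Rn45s moved the median of all genes by 0.05. Of the 45 intervals, 16 lay within a 2-fold change, beside 3053 of all 12993 genes tested. Each group had 2 libraries and Rn45s took up to 46.6% of reads. The part of either in the width of the intervals was not tested.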
